A study of Mus musculus x Rattus norvegicus with 2 samples.

Results

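The cytosolic ribosomal protein genes encode the proteins of the large (60S) and small (40S) ribosomal subunits, which in the cytoplasm translate nuclear-encoded messenger RNA. Their members were the mouse features whose symbols follow the Rpl and Rps naming scheme with a number, together with the P stalk genes Rplp0, Rplp1 and Rplp2 and the small subunit gene Rpsa. The rule used names only and no measured value. It found 76 of 55403 mouse features, and 80802 features of mouse and rat in all, with 46 members of the large and 30 of the small subunit. Rps3a1, Fau and Rack1 also encode proteins of the ribosome or bound to it, but their symbols fall outside the rule. The symbols of paralogs such as Rpl22l1 do too.

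The samples were lungs of mouse-rat chimeric embryos at E20.5, with mouse cells of strain C57BL/6 and rat cells of strain SD, read as a pair of 10x 3' v3 droplet libraries. In the control the host rat was wild type and the lung held mouse and rat cells, and in the mutant the host rat was Nkx2-1-/-. Nkx2-1 is the transcription factor that lung epithelium needs to form, and the lung of the mutant was described as mouse. The mouse donor cells carry no stated mutation in either group, so the genotype label belongs to the host. Each group is a single library, so a difference between groups cannot be checked against replicates, no p-value is given, and all intervals are 95% intervals of counting error only. How many embryos or donor cell clones went into a library is not stated in the sources read.

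The control held 7260 and the mutant 8498 mouse cells after filtering, with medians of 8117 and 10094.5 mouse UMIs per cell, where a UMI is 1 counted RNA molecule. The 2 libraries shared 47 barcodes, 29 of them among the kept ones. Mouse Nkx2-1 stood at 495 CPM (UMIs scaled to a common total of 1e+06 per class and library) in control and 320 in mutant epithelial cells, and rat Nkx2-1 at 5044 and 1 UMIs over all kept barcodes. Mitochondrially encoded genes took 2.60% of mouse UMIs in control cells and 4.53% in mutant cells. The control matrix was counted with Cell Ranger 6.0.1 and the mutant matrix with 7.0.1, a version that counts intronic reads by default. The setting used for introns is not stated in the sources read, so the counting version and the host genotype cannot be told apart.

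Ribosomal protein messenger RNAs are among the most abundant of a growing cell, and nearly all of them start with a terminal oligopyrimidine (TOP) tract, a C followed by a run of C and T bases at the very 5' end. Through this tract the mTOR pathway, by way of Larp1, controls their translation and storage together with those of elongation factors. Proliferating and developing tissues are known for high ribosome production, and differentiated contractile or ciliated cells for less.

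The tract is shown for members described below that have an annotated transcript starting with it. In GENCODE vM21, the mm10 annotation, 22 of 76 members (28.9%) had a protein-coding transcript beginning with C and at least 5 pyrimidines in a row including that C. Among 9875 other protein-coding genes with at least 10 CPM in either library 5.43% had one. These shares count any annotated transcript of a gene. When only the lowest numbered transcript considered for each gene was taken, 11 members (14.5%) and 2.19% of the other genes had the tract. Annotated starts need not be the base where transcription begins, so a member without the tract here lacks it only in this annotation. The first 25 bases of the transcript with the longest tract follow, 5' to 3' in the sense of the gene, with the tract in capitals.
Rps24 (chr14:24490718-24490742, plus strand): CTCTTTTCCTCCTCTCCagctccgg
Rpl32 (chr6:115808723-115808747, minus strand): CTTCCTTCTTCCTCggcgctgccta
Rpl10 (chromosome X, plus strand, across an exon junction): CTCTTTTCCTCTggcgcggtgacca
Rps2 (chr17:24720110-24720134, plus strand): CTTCTTCTTCTTCgggagaacacgt
Rps10 (chr17:27635220-27635244, minus strand): CTTCCTTTCCagcctccgcctcgga
Rpl13a (chr7:45128713-45128737, minus strand): CCTTTCCCaggcggctgccgaagat
Rps21 (chr2:180257377-180257401, plus strand): CCCTCCTgcccaatagtgctgcgga
The run is longest in Rps24 with 17 bases and shortest of these in Rps21 with 7. All are the 5' end of an annotated transcript. For Rps24, Rps2, Rps10 and Rpl13a it starts inside the annotated gene, and for Rpl10 the bases span a pair of exons. The tract carries none of the 3' end sequence from which the libraries were read.

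The members form a gene group of short introns. Their median total intron length was 1140.5 bp against 22400 bp for other genes with at least 10 CPM in either library, and 73 of 76 had at most 10 kb. The exceptions were Rps14 with 29055 bp, Rpl11 with 22467 bp and Rpl3 with 10903 bp. A count per molecule at the 3' end needs no division by length, so levels of different members are set side by side as CPM. Most members also have processed pseudogene copies: 61 of 76 had at least 1 annotated feature named for them as a pseudogene, 316 in all. Reads that match a member and a copy, or mouse and rat alike, may be dropped or split in counting, so the level of any single member is uncertain.

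All 76 members had at least 20 UMIs in each library and at least 10 CPM. In the control Rps29, a zinc-binding small subunit protein, was the most abundant with 5643 CPM, followed by Rplp0, the base of the P stalk where elongation factors dock, with 4996 CPM. The lowest were Rpl13a with 262 CPM, Rpl24 with 268, Rpl23a with 326, Rps10 with 351 and Rpl27 with 434. In the mutant the order differed: Rps24 stood at 3570 CPM and Rpl23 at 3558, both above Rps29 at 2436. A UMI of Rps29 was present in 99.8% of control and 99.0% of mutant mouse cells, and one of Rpl13a in 77.5% and 66.5%. The 5 members with most UMIs over both libraries held 12.8% of all member UMIs of the control and 10.03% of those of the mutant, so no few genes made up the group. The large subunit genes gave 55.1% of the control's member UMIs and 53.9% of the mutant's.

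Over all mouse cells the members took 18.9% of control and 12.6% of mutant mouse UMIs, 17205300 and 11446432 UMIs. The share was lower in the mutant in every class of cells: in epithelial cells 20.1% against 13.2%, in endothelial cells 16.4% against 9.70%, in mesenchymal cells 19.0% against 13.04%, and in the 165 control and 87 mutant immune cells 16.8% against 12.4%. On the log2 scale, mutant over control, these are differences of -0.60 (interval -0.61 to -0.60), -0.76 (-0.76 to -0.76), -0.54 (-0.54 to -0.54) and -0.44 (-0.45 to -0.44). The share varied more from cell to cell than between the classes. The middle 50% of cells lay from 17.5% to 22.2% in control and from 10.4% to 17.9% in mutant epithelial cells, from 13.9% to 20.8% and from 6.45% to 12.5% in endothelial cells, and from 16.9% to 21.9% and from 9.27% to 16.3% in mesenchymal cells.

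Types were named from their markers in each library apart, and those with at least 50 cells in a library are given. In the control the share was highest in secretory-like cells, the airway cells that make secreted proteins, with 22.4%, followed by AT1-like cells, the flat gas-exchange epithelium, with 20.4%. AT2-like cells, which make surfactant, and alveolar fibroblast-like cells both stood at 19.8%. Pericyte-like cells followed with 18.6%, adventitial-like with 18.4% and myofibroblast-like with 17.2%. The lowest of these were arterial-like cells with 14.3%, smooth muscle-like cells with 14.1% and 65 erythroid cells with 10.7%. The intervals of counting error were within 0.1 percentage points of each of these values, with no error between animals to set against them.

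In the mutant secretory-like cells were again highest, at 19.5%, followed by alveolar fibroblast-like at 14.9%, AT1-like at 14.4%, adventitial-like and AT2-like at 13.4% and venous-like at 11.5%. Among types with at least 50 cells it ended with pericyte-like cells at 10.99%, smooth muscle-like and myofibroblast-like at 9.13%, arterial-like at 8.16%, aerocyte-like, the large capillary cells of gas exchange, at 6.73%, and 71 ciliated-like cells at 4.72%. Each type present with at least 50 cells in both libraries was lower in the mutant. Most control smooth muscle-like cells, 264 of 290, came from a cluster led by Crh, Fgf18, Cdh4, Lgr6 and Scara5, and Cdh4, Lgr6, Scara5 or Crh were among the leading genes of the mutant myofibroblast-like clusters. The names thus may not cover like cells in the libraries, and no difference is given for these types. Of the others the log2 difference was smallest in secretory-like cells (-0.19) and largest in arterial-like (-0.81) and pericyte-like cells (-0.76). In AT1-like cells it was -0.50, in AT2-like cells -0.57, in alveolar fibroblast-like -0.41 and in adventitial-like -0.46. Cells of no named class went the other way, 24.5% of 434 control and 27.5% of 389 mutant cells' UMIs (log2 difference 0.16). These were shallow cells in both libraries.

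**Figure D1:**
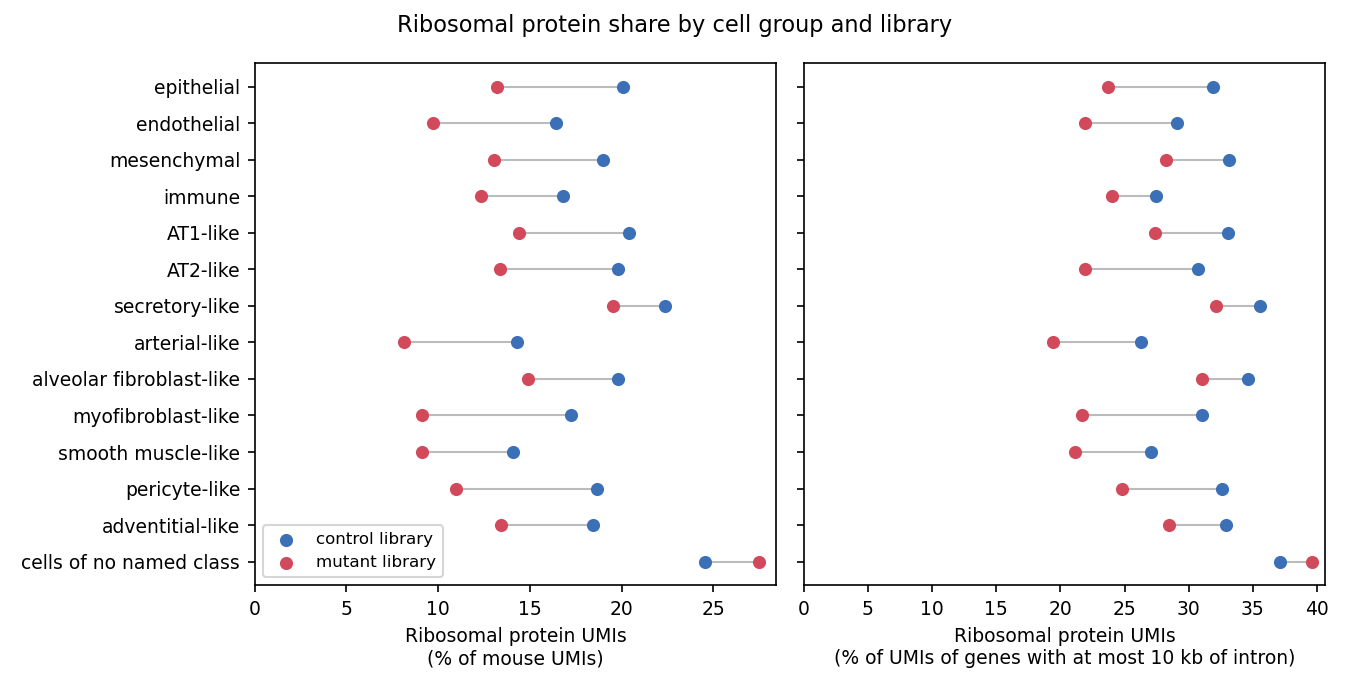
Ribosomal protein UMIs as a percentage of mouse UMIs (left) and of the UMIs of genes with at most 10 kb of total intron (right), in each class and cell type, with 1 point per library and a line joining them. The mutant point lies to the left of the control point in every group except the cells of no named class, and the myofibroblast-like and smooth muscle-like pairs may not join like cells.

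Depth differed between cells, and the share differed between bands of depth in both libraries, with no course common to the classes. In mutant epithelial cells it was 20.4% below 2000 mouse UMIs per cell, 13.9% from 10000 to 20000 and 12.2% above. In control epithelial cells the same bands gave 17.5%, 20.03% and 20.1%. Endothelial cells below 2000 UMIs stood at 19.0% in the control and 12.5% in the mutant. Those with 5000 to 10000 UMIs stood at 15.7% and 9.35%. In mesenchymal cells with 5000 to 10000 UMIs the share was 19.9% in the control and 11.5% in the mutant, and with 10000 to 20000 UMIs it was 19.1% and 13.6%. The mutant was lower at each band of 2000 UMIs or more in all 3 large classes.

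Other genes with 50 to 100 kb of intron had median log2 differences of 0.31, 0.40 and 0.30, mutant over control, in epithelial, endothelial and mesenchymal cells, and those with 10 to 20 kb of -0.42, -0.27 and -0.29. The members were set against other genes with at most 10 kb of intron, mitochondrially encoded genes left out. Among the UMIs of these short-intron genes the members took 31.9% in control and 23.7% in mutant epithelial cells, 29.1% and 21.9% in endothelial, 33.2% and 28.2% in mesenchymal, and 27.5% and 23.9% in immune cells. The log2 differences were -0.42 (-0.43 to -0.42), -0.41 (-0.41 to -0.40), -0.23 (-0.23 to -0.23) and -0.19 (-0.20 to -0.18). By type they ran from -0.15 in secretory-like and -0.16 in alveolar fibroblast-like cells to -0.44 in arterial-like and -0.48 in AT2-like cells, with myofibroblast-like and smooth muscle-like cells left out as above. The cells of no named class again went the other way, with 0.09.

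Most of this difference was gone when a few abundant short-intron RNAs were left out. The 20 most abundant other short-intron genes took 11.5% of mouse UMIs in control and 21.0% in mutant epithelial cells, 7.94% and 12.9% in endothelial, and 8.44% and 11.99% in mesenchymal cells. Of these 20, 6, 3 and 6 were higher in the mutant. They include Rps3a1, Fau and Rack1, which fall outside the symbol rule, and the TOP genes Eef1a1 and Tpt1. The short-intron background thus holds some genes of the ribosome itself. Rps3a1 stood at 4498 CPM in control and 2167 in mutant epithelial cells. CT010467.1 stood at 5569 CPM in control and 63422 in mutant epithelial cells, at 13037 and 75804 in endothelial and at 14694 and 53727 in mesenchymal cells. Malat1, a long RNA that stays in the nucleus, stood at 12092 and 36214, 12943 and 20925, and 19233 and 28366 CPM, and Sftpc, the surfactant protein C gene of AT2 cells, at 31412 and 65383 CPM in epithelial cells. With those 20 genes left out, the members' share of short-intron UMIs differed on the log2 scale by -0.034 in epithelial cells, by -0.13 for the endothelial class and by -0.030 for the mesenchymal one. With only Malat1 and CT010467.1 left out it was -0.18, -0.12 and -0.039. Both settings were added after the data were seen.

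Gene by gene the members sat close to the middle of the other short-intron genes, except in endothelial cells. On the scale log2 of (CPM + 10), mutant over control, which understates the change of low genes, the median member differed by -0.56 in epithelial cells, -0.75 in endothelial cells and -0.53 in mesenchymal cells. The median over the other short-intron genes was -0.55 (3024 genes), -0.43 (2962) and -0.43 (2990), and over all genes tested it was -0.17, -0.093 and -0.10. Relative to the other short-intron genes the median member thus stood at -0.0053, -0.31 and -0.10, and in immune cells at -0.13. Other short-intron genes with at least 500 CPM in either library had medians of -0.80 (149 genes), -0.69 (138) and -0.64 (135). This floor was not put on the members, and abundance was not matched further. With a pseudocount of 1 CPM in place of 10 the relative medians were 0.19, -0.19 and 0.040, so their sign in epithelial and mesenchymal cells depends on it.

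In epithelial cells 67 of 76 members were lower in the mutant, against 57.9% of all genes tested and 80.6% of the other short-intron genes. In endothelial cells 71 were lower, against 55.9% and 84.4%, and in mesenchymal cells 68, against 56% and 81.5%. A log2 difference of -1 or less was reached by 19 members in epithelial cells, against 11.8% of all genes and 21.5% of the other short-intron genes. In endothelial cells 21 members reached it, against 3.83% and 8.31%, and in mesenchymal cells 11, against 5.74% and 10.9%. The other way, 3, 1 and 2 members reached 1 or more, against 12.4%, 10.6% and 10.8% of all genes. Among the other short-intron genes with at least 500 CPM in either library, a floor not put on the members, 40.9%, 23.2% and 29.6% reached -1 or less. Against these the members' counts were lower in epithelial and mesenchymal cells and near in endothelial cells.

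**Figure D2:**
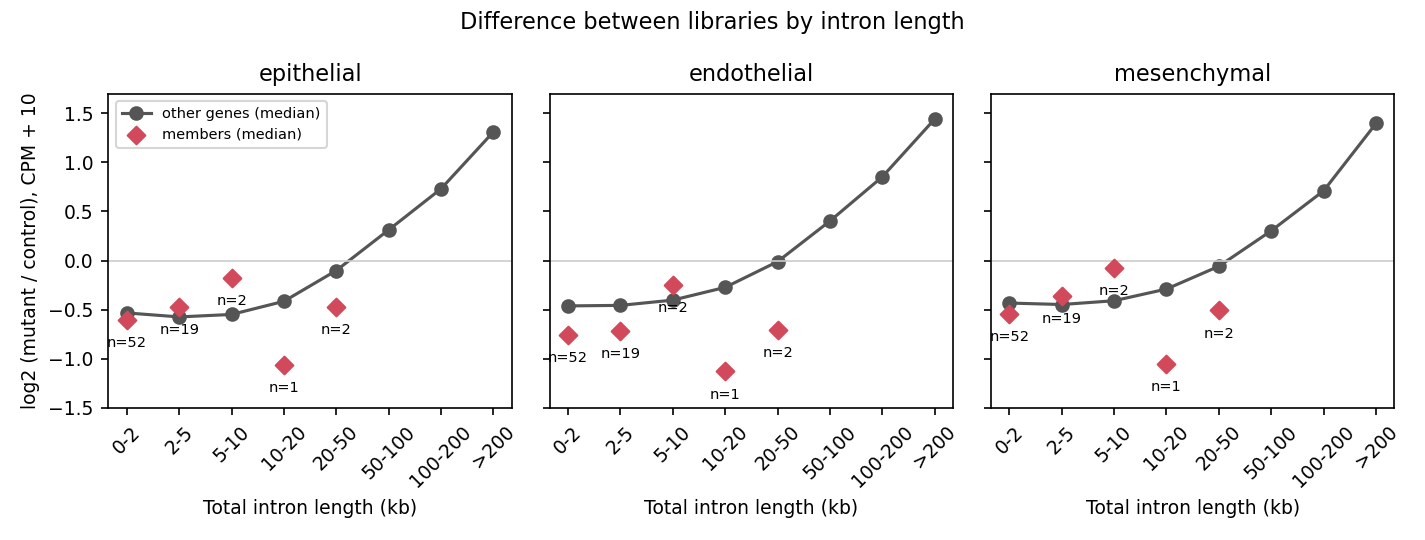
Median log2 difference of CPM + 10, mutant over control, by total intron length, for other genes (grey line) and members (red diamonds, with their number), in 3 classes. Other genes go from about -0.5 at the shortest introns to above 1.3 beyond 200 kb, and the 52 members with at most 2 kb lie at -0.61, -0.76 and -0.54.

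Intron length set out the background against which the members lay. Other genes with at most 2 kb of intron had medians of -0.53, -0.46 and -0.43 in the epithelial, endothelial and mesenchymal classes, and those with more than 200 kb one of 1.31, 1.44 and 1.39. The 19 members with 2 to 5 kb were at -0.47, -0.72 and -0.36. Of the 3 members with more than 10 kb, Rpl3, which helps to form the peptidyl transferase centre, differed by -1.07, -1.13 and -1.06, Rpl11 by -0.71, -0.82 and -0.60, and Rps14 by -0.24, -0.59 and -0.42, so only Rps14 lay above the median member.

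Single members differed in both directions. Relative to the median other short-intron gene, a relative log2 difference of 1 or more was reached by 5 members in epithelial cells, against 10.1% of the other short-intron genes, by 4 in endothelial cells, against 4.09%, and by 4 in mesenchymal cells, against 5.92%. One of -1 or less was reached by 2, 4 and 3 members, against 6.75%, 1.69% and 3.98%. The counts are within a few genes of these shares, so no spread particular to the members is read from them. The 4 highest members were the same in all 3 classes, and the classes share their library pair, so they are no replicates of each other.

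Rps10, a small subunit protein of the 40S head, stood at 387 CPM in control and 990 CPM in mutant epithelial cells, at 289 and 654 in endothelial, at 344 and 941 in mesenchymal and at 332 and 935 in immune cells. The log2 differences were 1.33, 1.15, 1.43 and 1.47, so the mutant was higher in each class. Rpl24, which forms a bridge between the subunits, stood at 283 and 652, 231 and 447, 274 and 635, and 182 and 468 CPM in the same order (1.17, 0.92, 1.18 and 1.31). Rpl23a, which lies at the exit of the peptide tunnel, stood at 309 and 597, 242 and 383, 376 and 681, and 287 and 531 CPM (0.93, 0.64, 0.84 and 0.87). These 3 were among the 5 members with fewest control UMIs. Rps19, the gene most often mutated in Diamond-Blackfan anaemia, was more abundant, at 1593 and 4305 CPM in epithelial, 1196 and 1854 in endothelial, 1335 and 2266 in mesenchymal and 1190 and 2426 in immune cells (1.43, 0.63, 0.76 and 1.02). Rpl5, which with Rpl11 binds 5S RNA and Mdm2, was the fifth in the first 3 of these classes, with 0.49, 0.05 and 0.19.

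Rps6, the small subunit protein phosphorylated by S6 kinase, was the lowest in mesenchymal cells, with 846 CPM in control and 221 in mutant cells. It stood at 841 and 242 CPM in epithelial, 794 and 264 in endothelial and 893 and 235 in immune cells, log2 differences of -1.89, -1.75, -1.55 and -1.88. Rpl38, known for tissue-specific roles in the mouse embryo, stood at 2772 and 818, 2394 and 647, 2286 and 661, and 2758 and 864 CPM in epithelial, endothelial, mesenchymal and immune cells (-1.75, -1.87, -1.78 and -1.66). Rps28 stood at 4047 and 1386, 2897 and 712, 3820 and 1243, and 3253 and 1109 CPM (-1.54, -2.01, -1.61 and -1.54). Rpl35, at the peptide tunnel exit, differed by -1.39, -1.51, -1.40 and -1.36, and Rpl27a by -1.45, -1.24, -1.28 and -1.25. Each of these 5 was lower in the mutant in all 4 classes.

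**Figure D3:**
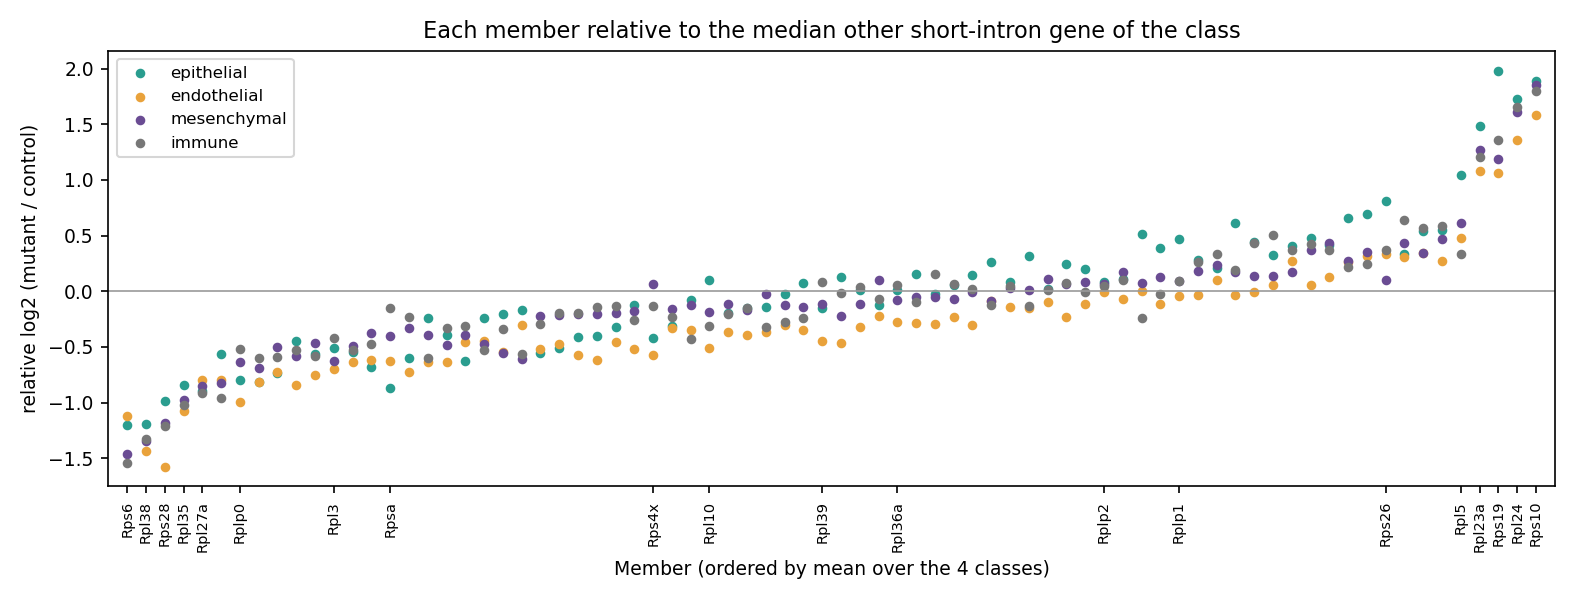
Each of the 76 members on the horizontal axis, ordered by its mean over 4 classes, and its log2 difference, mutant over control, minus the median of other short-intron genes of the class; 1 point per class, with 20 of the members described in the text labelled. The order runs from Rps6 at the left to Rps10 at the right, and all 4 classes come from the same pair of libraries.

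Members of like role differed among themselves. Of the P stalk proteins, Rplp0 differed, mutant over control, by -1.35 in epithelial cells, -1.43 in the endothelial class and -1.06 in the mesenchymal one, while its partners differed less, Rplp1 by -0.089, -0.48 and -0.33, and Rplp2 by -0.47, -0.44 and -0.36. Rpsa, which also serves as a laminin receptor, differed by -1.43, -1.06 and -0.83, and was among the 5 lowest of epithelial cells. The X-linked members with values here were Rpl10, with -0.46, -0.94 and -0.61, Rps4x, with -0.97, -1.01 and -0.36, Rpl36a, with -0.54, -0.71 and -0.51, and Rpl39, with -0.70, -0.88 and -0.54. The large subunit members had medians of -0.54, -0.76 and -0.55 and the small subunit members of -0.61, -0.69 and -0.45.

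Genes annotated over the members on the same strand could share their reads, and 33 of 76 members had at least 1. Rpl24 lies within Gm28037, which had 0 UMIs in control and 161 in mutant mouse cells, and Rps10 overlaps Gm49804, with 0 and 8. Rpl23a hosts small nucleolar RNAs in its introns, and 14 features were named as pseudogenes of Rpl23a and another 14 of Rps19. Rpl27a, one of the lower members above, overlaps Snora3, Gm47284 and Gm24888. These had 0, 2 and 1 UMIs in control and 0, 3 and 0 in mutant mouse cells. No overlapping gene on the same strand was annotated for Rps6, Rpl38, Rps28, Rpl35 or Rps19. The part of such overlaps in the differences was not tested.

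Rat cells of the same libraries gave the members' rat counterparts, read on the rat genome. Rat members took 20.1% of rat UMIs in the 725 rat cells of the control and 12.98% in the 79 of the mutant. Of 64 rat symbols with at least 20 UMIs in each library 53 were lower in the mutant, with a median log2 difference of -0.67. Of the other rat genes 47.5% were lower, with a median of 0.06. These other rat genes were of any intron length, unlike the short-intron background used for the mouse members. Rat genes with short introns were not set apart. The rat cells were not of 1 kind: Epcam, an epithelial marker, stood at 868 CPM in the control and at 0 in the mutant, and Pdgfrb, a pericyte marker, at 55.6 and 493. The host genotype, the counting version and the kinds of rat cell all differ between the libraries. Their parts in the lower rat share cannot be told apart.

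Single rat members did not repeat the mouse ones in each case. Rat Rps28 was lower, with 3765 and 1565 CPM (-1.26), as in mouse cells, and rat Rpl27a was too (-0.78). Rat Rps10, Rpl23a and Rpl24 were not higher, with -0.03, -0.17 and -0.49, and rat Rpl35 was at 0.04. Rat Rps6 and Rpl38 were counted with 7 and 0 UMIs in the control rat cells, so no comparison was made for them. Rat member UMIs in mouse barcodes were 97870 in the control and 4001 in the mutant, 0.548% and 0.0324% of all member UMIs of these barcodes.

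Cycling cells were set against others within each library. A cell was called cycling when, thinned to 2000 UMIs of non-member mouse genes, it had 3 or more UMIs of a list of 27 cell cycle genes, and not cycling when it had 0; shallower cells were left out, 258 control and 293 mutant epithelial, 609 and 162 endothelial, and 188 and 101 mesenchymal cells. In the control 65.3% of epithelial, 76.6% of endothelial and 46.1% of mesenchymal cells were called cycling, and in the mutant 1.68%, 26.9% and 4.32%, so the mutant epithelium had 31 such cells. Without thinning or a depth minimum, 3 or more UMIs of the list were found in 84.7% and 24.4% of epithelial, 80.2% and 51.1% of endothelial, and 79.4% and 37.2% of mesenchymal cells of the control and mutant.

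The members' share of short-intron UMIs was close to equal in cycling and other cells. In control epithelial cells it was 31.6% in cycling against 33.4% in other cells (log2 difference -0.083), and in mutant ones 22.2% against 23.5% (-0.080). In endothelial cells it was 29.0% against 28.2% in the control (0.041) and 20.8% against 21.7% in the mutant (-0.066). In mesenchymal cells it was 32.6% against 33.3% (-0.034) and 28.1% against 27.99% (0.0079). These differences exceeded the counting intervals and stayed under 0.1 in size, with no common direction under this definition. With Mki67 or Top2a as the definition all 6 were below 0, from -0.040 in mutant epithelial to -0.19 in mutant endothelial cells, and with 5 or more UMIs mutant epithelial cells gave -0.28. Cells with 5000 to 20000 UMIs gave 0.18 in mutant epithelial cells in place of -0.08. Cycling cells were deeper, with medians of 20434 against 10394 mouse UMIs in control epithelial and 11653 against 8439.5 in control mesenchymal cells; the part of depth was not tested. The classes may hold other mixtures of cell types among cycling than among other cells, so the share was also taken within each type with at least 20 cells of each kind.

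Within cell types the differences were wider and again ran both ways. In the control, 26 cycling adventitial-like cells stood at 28.3% against 34.3% in 40 others (log2 difference -0.28), and 223 cycling alveolar fibroblast-like cells at 32.6% against 35.4% in 209 others (-0.12). AT1-like and pericyte-like cells of the control gave -0.075 and -0.084, and smooth muscle-like and arterial-like ones 0.0077 and 0.023. In the mutant, 21 cycling myofibroblast-like cells stood at 23.6% against 21.3% in 655 others (0.14). Pericyte-like cells of the mutant gave 0.075, alveolar fibroblast-like 0.0022, arterial-like -0.14 and aerocyte-like -0.30, the last from 29 cycling cells with 13.8% against 16.9%. The intervals of the control smooth muscle-like (-0.0052 to 0.021) and the mutant alveolar fibroblast-like difference (-0.0048 to 0.0092) include 0.

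By number of cell cycle UMIs the share was not a straight course. In control endothelial cells it went from 28.2% at 0 to 30.2% at 3 to 5 and back to 28.2% at 11 or more. In mutant endothelial cells it went from 21.7% to 24.2% and then to 19.0%, and in control mesenchymal cells from 33.3% to 34.9% and 31.3%. Control epithelial cells went down from 33.4% at 0 to 30.9% at 11 or more. Gene by gene, 27 of 76 members were higher in cycling control epithelial cells, against 58.1% of other short-intron genes, 61 in control endothelial cells, against 53%, and 34 in control mesenchymal cells, against 48.6%. In the mutant 8 were higher in cycling epithelial cells, against 68.1%, 39 in endothelial cells, against 56.8%, and 45 in mesenchymal cells, against 59.6%. The count was thus near or below the background in each of these but the control endothelial cells.

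**Figure D4:**
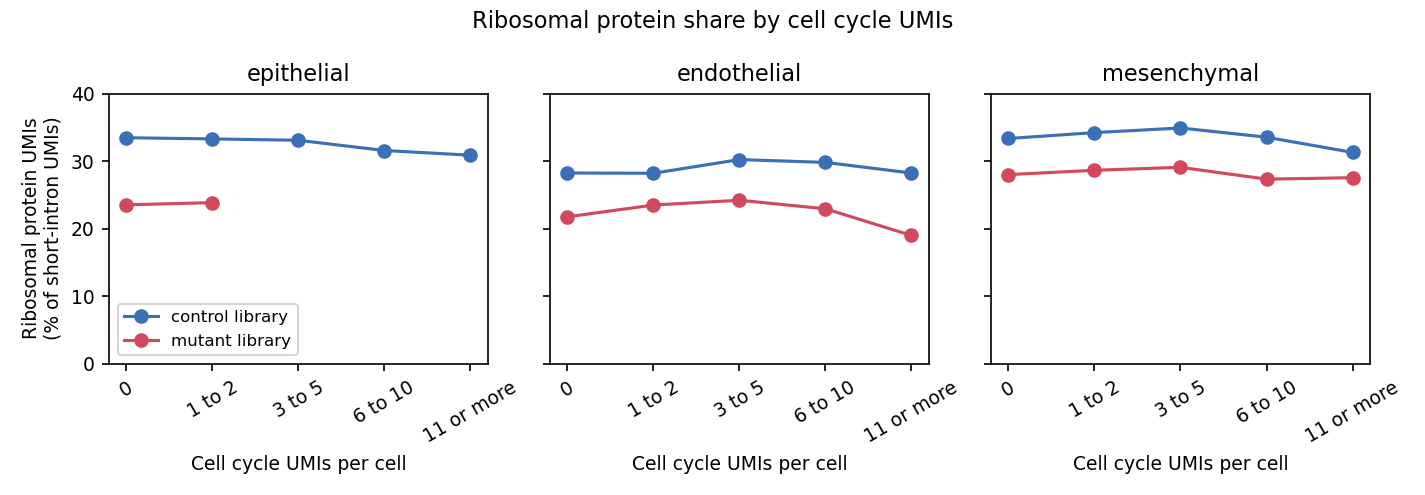
Ribosomal protein UMIs as a percentage of short-intron UMIs by the number of cell cycle UMIs per thinned cell, in each class, with 1 line per library. Both libraries peak at 3 to 5 UMIs in endothelial and mesenchymal cells, and mutant epithelial cells had too few cells beyond 2 UMIs to plot.

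The make-up of the ribosomal protein pool, the share of each member among all member UMIs, moved in single genes. In control epithelial cells Rps26, a protein at the messenger exit of the small subunit, gave 0.929% of member UMIs in cycling and 1.37% in other cells (log2 difference -0.57), and in control endothelial cells 0.828% and 1.18% (-0.51). Rps2 and Rpsa went the other way in control epithelial cells, with 2.31% against 1.64% (0.49) and 2.13% against 1.59% (0.43). Rpsa was also higher in cycling endothelial cells of the mutant, with 1.95% against 1.48%. In mutant epithelial cells Rplp2 differed by 0.79, Rps15 by 0.56 and Rpl10 by -0.66, the last from 482 UMIs in 31 cells.

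The make-up was also set out across 10 cell groups, the cell types and the immune class. For 75 of 76 members the highest and lowest of these groups differed by less than 1 on the log2 scale in each library, with a median range of 0.38 in the control and 0.49 in the mutant. The exception of the control was Rpl10, a large subunit protein needed for subunit joining, which gave 0.690% of member UMIs in secretory-like and 1.56% in smooth muscle-like cells (range 1.17). The exception of the mutant was Rps19, with 1.66% in myofibroblast-like and 4.11% in AT1-like cells (1.31). In the control Rps19 was also highest in AT1-like cells, at 0.885%, and lowest in myofibroblast-like cells, at 0.664%.

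Of the other members with a wide range, Rps21 kept both extremes in both libraries. It was lowest in AT1-like and highest in arterial-like cells, with 1.12% and 1.91% in the control and 0.945% and 1.80% in the mutant. Rps4x was highest in alveolar fibroblast-like cells in both, at 2.63% and 2.98%, and lowest in immune cells of the control and arterial-like cells of the mutant. Rps26 was at its highest in alveolar fibroblast-like cells in the control, at 1.45%, and in secretory-like cells in the mutant, at 2.07%. Rpsa was highest in AT2-like cells of the control, at 2.27%, and lowest in AT2-like cells of the mutant, at 1.12%. Rplp1 ran from 1.18% in secretory-like to 2.24% in immune cells of the control, and Rpl13a from 0.0994% in secretory-like to 0.168% in pericyte-like cells.

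**Figure D5:**
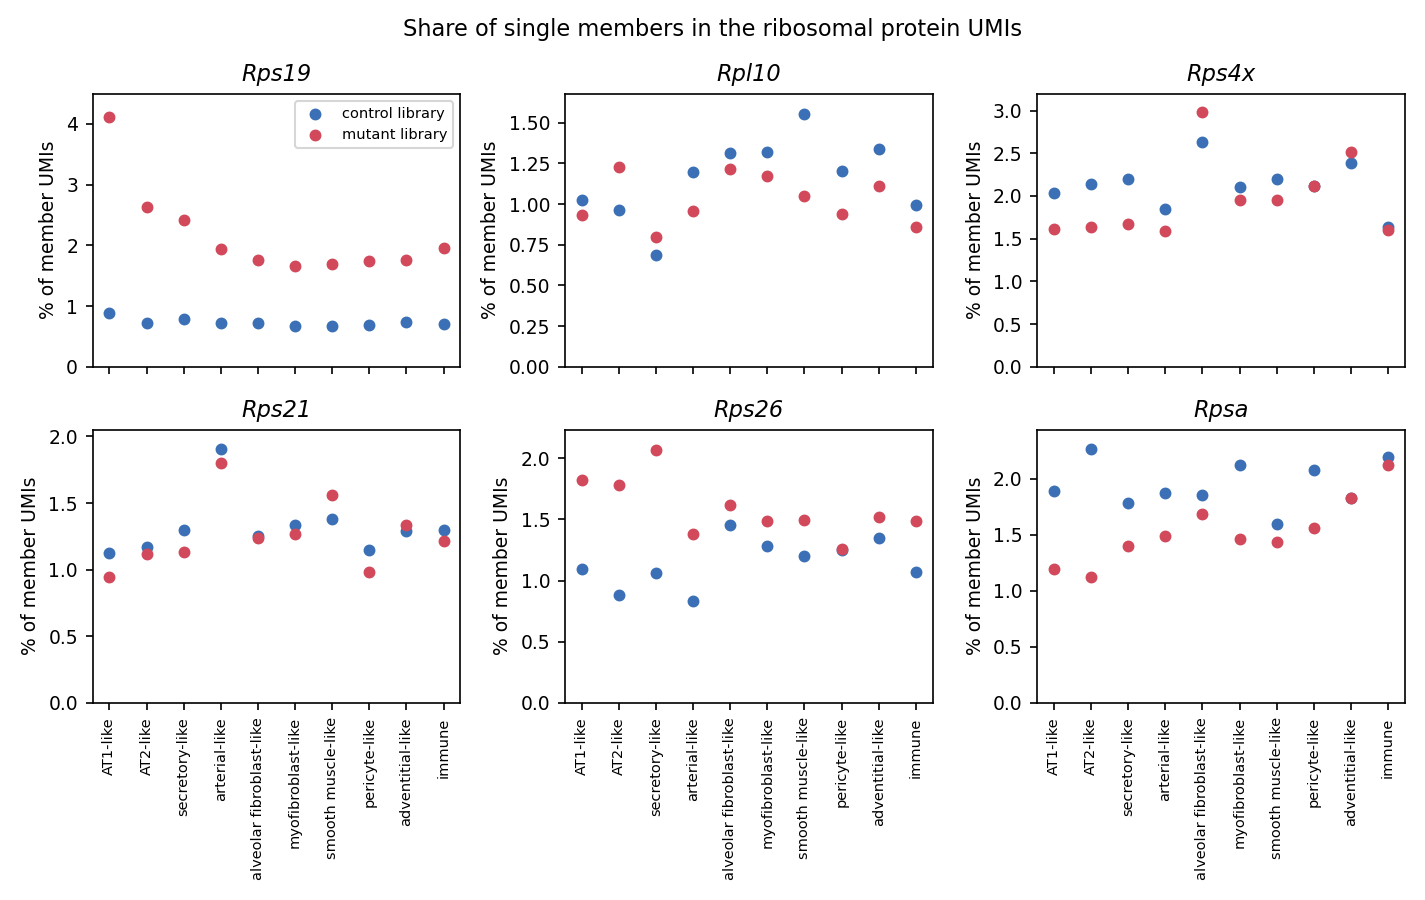
Share of 6 members among all member UMIs by cell type, with 1 point per library. Rps19 in AT1-like cells of the mutant is at 4.11%, and Rps21 is highest in arterial-like cells of both libraries.

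Genes around the ribosome were read as fixed lists, against the same background of lower genes: 57.9%, 55.9% and 56% of all genes tested and 80.6%, 84.4% and 81.5% of other short-intron genes in the epithelial, endothelial and mesenchymal classes. Of 23 measured ribosome biogenesis genes, which process ribosomal RNA and assemble subunits, 23 were lower in epithelial cells (median log2 difference -1.16), 22 in endothelial (-0.93) and 23 in mesenchymal cells (-0.69). Relative to other short-intron genes these medians are -0.61, -0.50 and -0.26. In epithelial cells Gar1 of the pseudouridylation complex stood at 69.3 and 10.7 CPM, Mrto4 at 88.1 and 17.9, and Rrn3, the RNA polymerase I factor, at 16.8 and 14.1. Of 77 measured mitochondrial ribosomal protein genes 76, 77 and 76 were lower, with relative medians of -0.33, -0.24 and -0.23. Among them Mrpl12 stood at 208 and 58.2 CPM in epithelial cells, while Mrpl14 was higher, at 209 and 303.

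Of 19 other TOP genes 18, 19 and 18 were lower, with relative medians of -0.28, -0.38 and -0.20. The epithelial extremes were Vim, an intermediate filament of mesenchyme, at 284 and 48.4 CPM, Hnrnpa1 at 603 and 171, and Tpt1 at 4725 and 5029. Of 8 snoRNA host RNAs 8 were lower in each class, with relative medians of -0.27, -0.22 and -0.21, and Snhg15 stood at 51.5 and 4.71 CPM in epithelial cells. Of 27 initiation factor genes 25, 27 and 26 were lower (relative medians -0.05, -0.27 and -0.16), with Eif5a at 886 and 303 CPM in epithelial cells. Of 13 genes of translation control by mTOR and Myc measured in epithelial cells 8 were lower, close to the share of all genes, at a relative median of 0.34, and Myc itself stood at 11.3 and 1.99 CPM. Rptor, with an intron length of 283201 bp, was higher, at 20.2 and 41.0 CPM. Rack1 and Fau, ribosome proteins outside the symbol rule, stood at 1656 and 1243 and at 3298 and 2944 CPM. The lists mix intron lengths, with a median of 8255 bp for ribosome biogenesis and 21335 bp for translation control, and the lists were not tested against each other or against other genes.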

How the data were processed

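Droplet single-cell RNA libraries of 1 control and 1 mutant lung were used. The authors deposited raw UMI counts per gene and barcode, whole numbers with no scaling, from Cell Ranger (cellranger 6.0.1 and 7.0.1, per the file headers) on a joint mm10 and rn6 gene set. Builds and Seurat 4.3 are per the submitters' processing notes. Barcodes with at least 500 genes and at most 20% mitochondrial UMIs were kept, called mouse at 90% or more mouse UMIs, and removed as doublets at a Scrublet score of 0.2. Doublets removed were 2.08% and 4.02% of mouse cells. Cells were clustered in Scanpy 1.11.5 with member, mitochondrial, haemoglobin and similar genes left out of the clustering genes (Leiden resolution 1). Names need at least 3 detected markers, and no more markers of another type than of their own among the 10 leading genes. Clusters are rebuilt here, and a name covers only what its markers show. UMIs were summed per class and library. Intervals are exact (Clopper-Pearson for shares and ratios, Poisson for CPM). Introns are those of GENCODE vM21, matched by gene identifier for 99.5% of mouse features. Genes named are the 5 highest and 5 lowest members per class, the 5 with most and fewest UMIs, the 5 of widest make-up, those 0.5 apart in make-up between cycling and other cells, the extremes of each list, and members named by role; Rps2, the overlapping genes, the 3 short-intron genes, Rpl11, Rps14, the leading genes of clusters and the rat genes were chosen after their values were seen. Scripts were tested on simulated data. TMM came from edgeR 4.0.16 and median of ratios from DESeq2 1.42.0. The members and lists were chosen with earlier results of these data known. Certain genes within these rules are not reported here.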

Additional observations from a re-analysis of the deposited data

Results flagged for a closer look

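The cells of no named class had a higher member share in the mutant (log2 difference 0.163), while each named class and cell type compared had a lower one. They were 434 control and 389 mutant cells, and whether they differ from the named classes beyond the spread between libraries was not tested. The difference between cycling and other cells in the short-intron share had opposite signs in the libraries: in endothelial cells it was 0.0411 for the control and -0.0662 for the mutant, and in mesenchymal cells -0.0337 and 0.00790. Among cell types the signs were also opposite in arterial-like (0.0228 and -0.137), alveolar fibroblast-like (-0.119 and 0.00223), myofibroblast-like (-0.0463 and 0.145) and pericyte-like cells (-0.0839 and 0.0749). The myofibroblast-like clusters of the libraries had different leading genes. These contrasts were not tested against each other.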

How the results depend on the processing

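The lower member share of the mutant kept its direction under every setting tried, in all 3 classes. Values are log2 differences, mutant over control, given for epithelial, endothelial and mesenchymal cells in that order. As a share of all mouse UMIs they were -0.52, -0.85 and -0.59 as medians over cells, -0.61, -0.77 and -0.55 without the 5 most abundant members, -0.60, -0.76 and -0.54 with pseudogenes and paralogs, -0.57, -0.71 and -0.53 with TMM scaling, -0.59, -0.69 and -0.49 with median of ratios, and -0.56, -0.72 and -0.53 without mitochondrially encoded genes. Barcodes with at least 1000 genes and at most 10% mitochondrial UMIs gave -0.75 and -0.54 in the last 2 classes, and no removal of doublets gave -0.78 and -0.54. Of the settings added after the data were seen, cells of 5000 to 20000 UMIs gave -0.57, -0.71 and -0.57, and a total without Malat1 and CT010467.1 gave -0.48, -0.65 and -0.47.

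As a share of short-intron UMIs they were, in the same class order, -0.33, -0.47 and -0.27 as medians over cells, -0.44, -0.41 and -0.24 without the 5 most abundant members, -0.42, -0.40 and -0.23 with pseudogenes and paralogs, -0.44, -0.40 and -0.23 with the stricter barcode filter, -0.45, -0.53 and -0.35 at most 2 kb of intron, and -0.39 and -0.22 (epithelial and mesenchymal) at most 20 kb. Keeping doublets gave -0.41 and -0.42 in the first 2 classes. Added settings gave -0.39, -0.38 and -0.25 for cells of 5000 to 20000 UMIs, -0.49, -0.50 and -0.28 with mitochondrially encoded genes, -0.18, -0.12 and -0.039 without Malat1 and CT010467.1, and -0.034, -0.13 and -0.030 without the 20 most abundant other genes.

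The difference between cycling and other cells was small and unstable. Values are control then mutant library. In epithelial cells it was -0.093 and -0.28 with 5 or more cell cycle UMIs, -0.061 and -0.040 with Mki67 or Top2a, -0.089 and -0.021 as medians over cells, -0.030 and -0.20 over all mouse genes, and 0.18 (mutant) in cells of 5000 to 20000 UMIs. In endothelial cells it was -0.12 (mutant) with 5 or more UMIs, -0.057 and -0.19 with Mki67 or Top2a, -0.022 (mutant) as a median, 0.12 and 0.016 over all mouse genes, and 0.011 and -0.10 in cells of 5000 to 20000 UMIs. In mesenchymal cells it was -0.061 and -0.025 with 5 or more UMIs, -0.11 and -0.10 with Mki67 or Top2a, -0.076 and 0.020 as medians, -0.0092 and 0.042 over all mouse genes, and -0.038 and 0.037 in cells of 5000 to 20000 UMIs. The cause of these changes was not tested.

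With no filter on low counts the reference median moved toward 0, because genes with hardly any UMIs then count, and the members with a relative log2 difference of 1 or more were 3, 1 and 2, those of -1 or less 18, 20 and 11, and those below 0 67 in epithelial and 68 in mesenchymal cells. With a pseudocount of 1 CPM the median member stood relative to other short-intron genes at 0.19 in epithelial and 0.040 in mesenchymal cells.

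With Leiden resolution 0.5 the members' percentage of mouse UMIs was 20.48 and 13.96 in AT1-like cells (control, mutant), 20.1 and 12.2 in AT2-like, 14.5 and 6.61 in arterial-like, 20.4 and 14.8 in alveolar fibroblast-like, and 19.5 and 13.3 in adventitial-like cells. It was 19.6 in mutant secretory-like, 6.89 in mutant aerocyte-like, 18.5 in control myofibroblast-like and 18.7 in control pericyte-like cells. No paired analysis was possible because each group has 1 library, and for the same reason no replicate could be left out. Counting error is far below these differences, so the number of libraries and not depth limits the precision.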
